A study of Mus musculus with 384 samples.

Results

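The 53 genes here, most of which encode potassium channels or their partner proteins, were counted in mouse cells of the dopamine (DA) neuron lineage. They are the entries of the deposited count table whose symbol begins with *Kcn* and that were counted with 10 reads or more in 10 or more of the 209 cells whose reads summed to 500000 or more. *Kcnj3*, *Kcnj5*, *Kcnj6*, and *Kcnj9*, the GIRK channels that DA autoreceptors open, were left out. The table holds 101 *Kcn* entries, of which 5 belong to those 4 symbols. Of the other 96 entries, 53 met the limit, and 12106 of all 47082 entries in the table did. The cells came from 8 DAT-IRES-Cre;Ai9 mice of the C57BL6/J strain, which are labelled as 3 females (mice 1, 4, and 6) and 5 males (mice 2, 3, 5, 7, and 8) aged 24–36 d and which all carry the same Cre driver and reporter. Cre is made from the dopamine transporter locus *Slc6a3* and turns on tdTomato for good, so a sorted cell need only have used that locus at some time. Propidium iodide-negative tdTomato+ cells of the midbrain, dissected together with the hypothalamus, went onto Fluidigm C1 chips. Runs were not shared between mice, so mouse and run cannot be told apart.

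Potassium channels set the resting potential of a neuron, end its action potentials, and time the interval to the next one. Voltage-gated (Kv) channels are tetramers of pore subunits to which cytoplasmic or membrane accessory subunits attach. The A-type current of Kv4 channels, built from *Kcnd2* or *Kcnd3* with KChIP proteins (*Kcnip1* to *Kcnip4*), opens below spike threshold and is well known in DA neurons as a brake on pacemaker firing. SK channels (*Kcnn1* to *Kcnn3*) and the BK channel (*Kcnma1*) are opened by calcium and shape the afterhyperpolarization, ERG channels (*Kcnh2*, *Kcnh6*, *Kcnh7*) shape the return from depolarization block, and ATP-sensitive channels (*Kcnj11* with its partner *Abcc8*) link firing to metabolism.

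The 209 cells had a median of 780484 reads on genes (range 500672–1545100), and 12–45 cells came from each mouse. Reads summed over a mouse came to 8499846–14549354 in females and 18664838–32834551 in males. *Th*, which encodes tyrosine hydroxylase, the rate-limiting enzyme of DA synthesis, reached 1000 CPM (counts per 1000000 reads) in 181 cells, called Th-rich below, and stayed under it in 28 cells, called Th-poor. Values per mouse are CPM of the reads summed over the cells of that mouse after TMM scaling. Values per length divide them by the kilobases (kb) of exon of the gene. The libraries carry no molecular identifiers, and the intervals and limits given below describe counting error alone.

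A cell had a median of 17 of the 53 genes at 10 or more reads (range 2–26), and a median of 15 (range 1–25) after all cells had been thinned to 500000 reads. Of the 53 genes, 12 were counted in at least 50% of the cells. The noncoding transcript *Kcnq1ot1*, which runs antisense to the Kv7 gene *Kcnq1*, was counted in 99.5% of cells (208 cells; exact 95% interval 97.4–99.99%). The BK channel gene *Kcnma1* followed with 96.7% (202 cells), the KChIP gene *Kcnip4* with 95.7% (200 cells), the ERG-family gene *Kcnh6* with 95.2% (199 cells), and the Kv4 gene *Kcnd3* with 82.3% (172 cells). The lowest share in any mouse was 83.3% for *Kcnma1* and *Kcnip4* and 91.7% for *Kcnh6*, whereas *Kcnd3* ranged from 61.1% in mouse 1 to 97.8% in mouse 3. The Kv beta subunit gene *Kcnab2* (71.8%), the Kv1 gene *Kcna2* (69.4%), and the Kv3 gene *Kcnc2* (64.6%) followed. Of these, *Kcna2* was counted in 27.8% of the cells of mouse 1 and 91.1% of those of mouse 3. The SK3 gene *Kcnn3* was at 53.1% and *Kcnip3* at 51.2%.

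**Figure D1:**
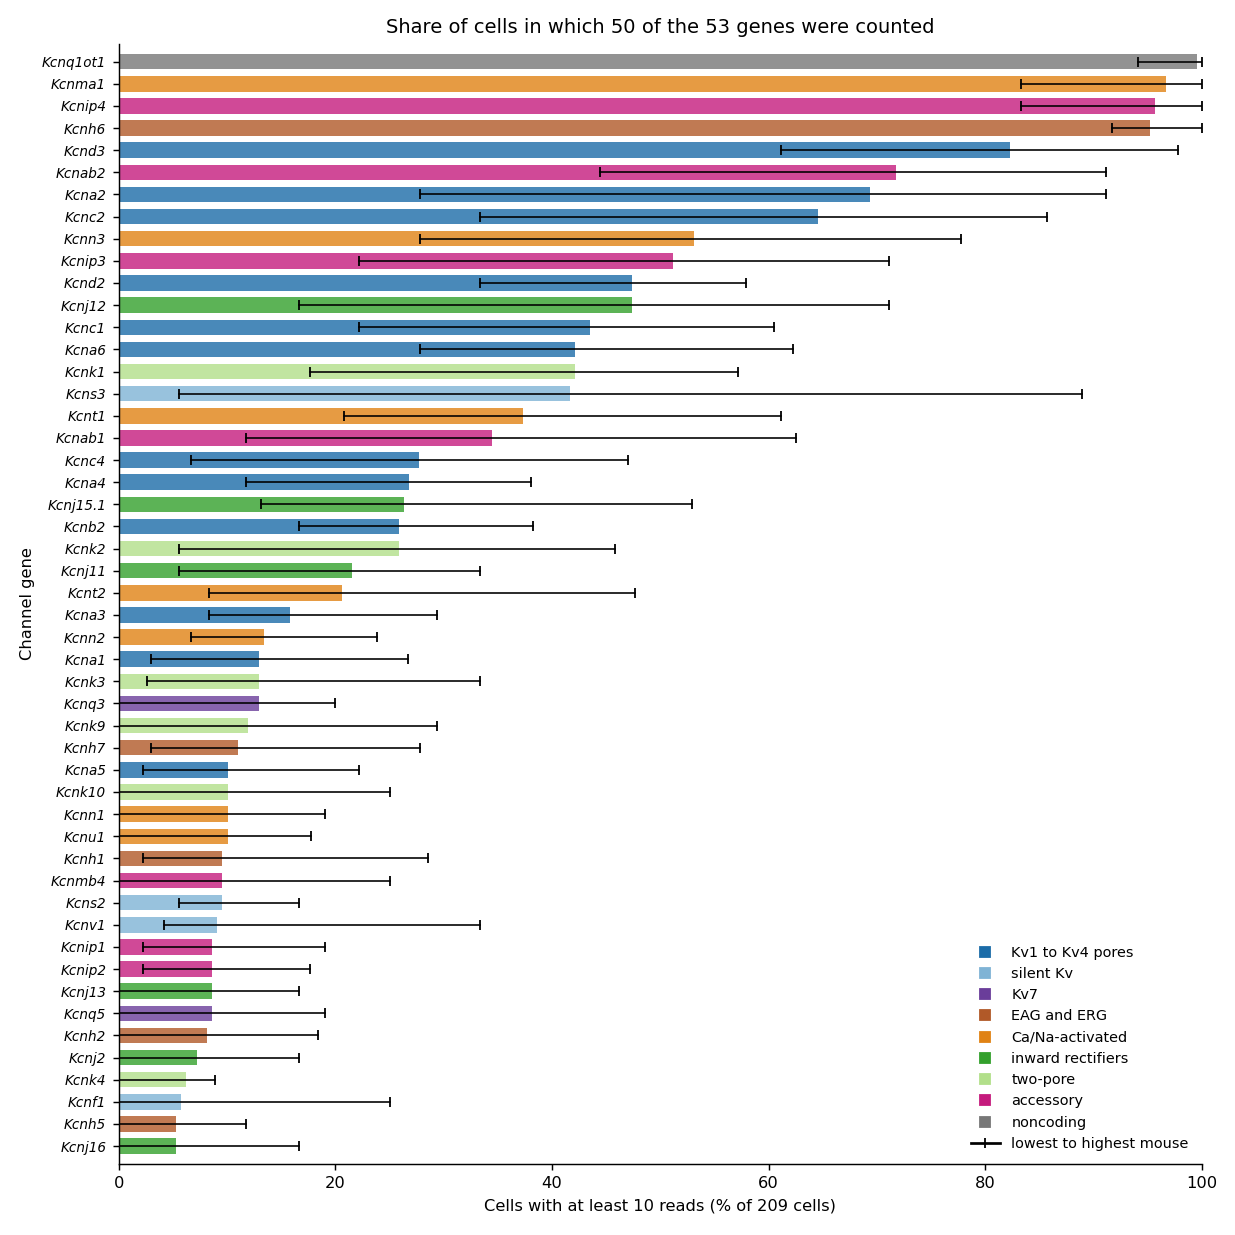
Share of the 209 cells with at least 10 reads of 50 of the 53 genes (bars, in % of cells, colored by gene family), with the lowest and highest share among the 8 mice (black line). Shares fall from 99.5% for *Kcnq1ot1* to 5.26% for *Kcnh5* and *Kcnj16*, and *Kcns3* has the range from 5.56% in mouse 1 to 88.9% in mouse 3.

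A larger group of genes was found in a minority of cells. The other Kv4 pore gene *Kcnd2* was counted in 47.4% of cells, the inward rectifier *Kcnj12* in 47.4%, and the silent Kv subunit *Kcns3*, which forms no channel alone and joins other Kv subunits, in 41.6%. The beta subunit gene *Kcnab1* reached 34.5%, and *Kcnj11*, the pore of the ATP-sensitive channel, 21.5% (range over mice 5.56–33.3%). The SK2 gene *Kcnn2* was at 13.4%, the Kv7 gene *Kcnq3* at 12.9%, the TASK genes *Kcnk3* and *Kcnk9* at 12.9% and 12.0%, and *Kcnh2*, the ERG gene known from the heart, at 8.13%. The remaining KChIP genes, *Kcnip1* and *Kcnip2*, were each counted in 8.61% of cells, and *Kcnmb4*, the neuronal BK beta subunit, in 9.57%. Some genes known from other work on DA neurons or glia did not meet the limit. *Kcnj8*, the pore of the vascular ATP-sensitive channel, had no read in any of the 209 cells (0 cells, which at a limit of 3 counts allows a share of up to 1.44%), and the glial inward rectifier *Kcnj10* had 10 or more reads in 2 cells.

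The limit itself is passed narrowly by some genes. Just inside it were *Kcnj16* and *Kcnh5* with 11 each, *Kcnf1* with 12, and *Kcnk4* with 13. Just outside were *Kcnk13*, *Kcnk6*, and *Kcnmb2* with 8 cells each, *Kcnab3* with 7, and *Kcnd3os*, *Kcng1*, and *Kcnmb4os2* with 6 each. With the cells thinned to 500000 reads, 49 of the 53 genes met the limit, and *Kcnh5*, *Kcnj16*, and *Kcnk4* were among those that did not. The entry *Kcnj15.1* is a second entry of the symbol *Kcnj15*, whose first entry had 10 or more reads in no cell. It was counted in 26.3% of cells at 6.28–12.6 CPM in all 8 mice, and because no position or length was matched to it, which transcript it stands for is uncertain.

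On the per-length scale, *Kcnip4* was the highest of the 52 genes with a length, at 107 ± 29.8 CPM per kb (SD, n = 8 mice, as for all values in this and the next paragraph), and it exceeded *Kcnh6*, the next gene, in 8 of 8 mice. *Kcnip4* (chr5:48389502-49524907, minus strand, GRCm38) encodes a KChIP that binds Kv4 channels. *Kcnh6* (chr11:106008124-106034549, plus strand) was at 22.0 ± 5.19 CPM per kb, *Kcnd3* (chr3:105452330-105674002, plus strand) at 16.5 ± 6.40, *Kcnma1* (chr14:23289431-24014491, minus strand) at 16.0 ± 2.39, and *Kcnip3* at 15.8 ± 9.21. The order among these is not fixed across mice: *Kcnh6* exceeded *Kcnd3* in 6 of 8 mice, *Kcnd3* exceeded *Kcnma1* in 3 of 8, and *Kcnma1* exceeded *Kcnip3* in 5 of 8. The SD of *Kcnma1* was the smallest of these relative to its mean. *Kcns3* was sixth, at 14.6 ± 14.2 CPM per kb, with a spread as large as its mean.

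**Figure D2:**
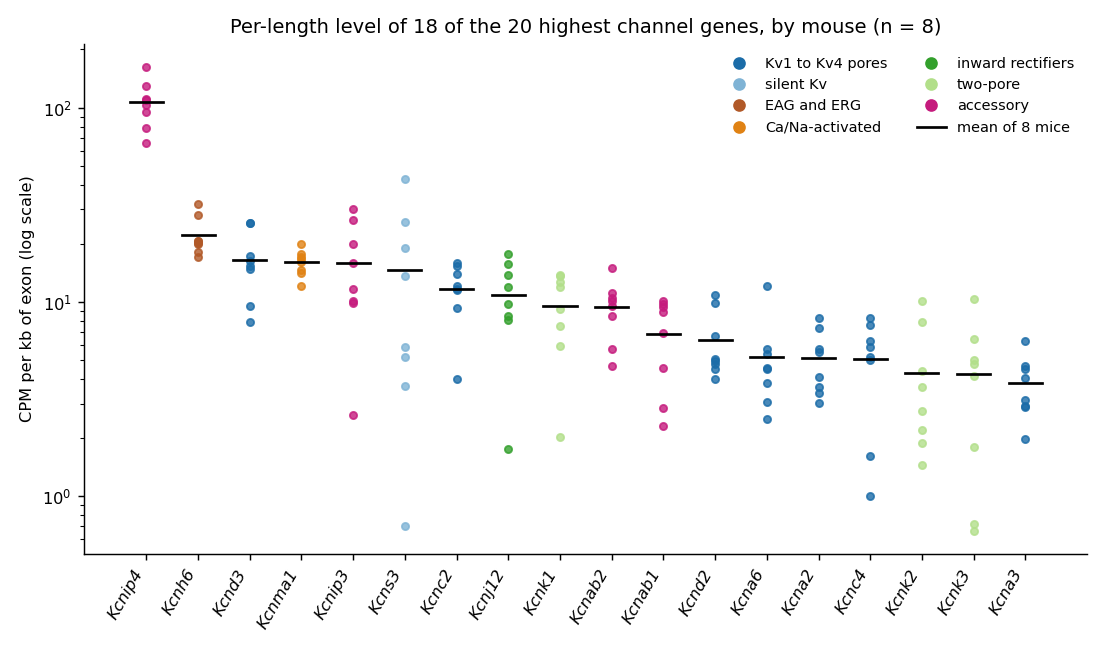
Level per length of 18 of the 20 highest genes (CPM per kb of exon, log scale), with each point 1 of the 8 mice, a black bar for the mean, and colors for the gene family. *Kcnip4* lies between 65.8 and 162 CPM per kb, above all points of the other genes, while *Kcns3* extends from 0.702 to 42.8.

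By family, the 14 Kv1 to Kv4 pore genes had a median level of 4.46 CPM per kb and made up 8 of the 20 highest genes. Below *Kcnd3* came *Kcnc2* at 11.7 ± 3.80, *Kcnd2* at 6.36 ± 2.62, *Kcna6* at 5.20 ± 2.96, *Kcna2* at 5.14 ± 1.94, *Kcnc4* at 5.10 ± 2.59, and *Kcna3* at 3.81 ± 1.37 CPM per kb. An antisense transcript covers 39.6% of the exon bases of *Kcna6*, and the libraries did not mark strand. The 7 accessory subunits had a median of 6.85 CPM per kb, with *Kcnab2* at 9.38 ± 3.22 and *Kcnab1* at 6.85 ± 3.20 below the 2 KChIP genes above. Among the 7 genes of calcium- and sodium-activated channels, *Kcnma1* was followed by the sodium-activated gene *Kcnt1* at 3.48 ± 3.75, with 118 CPM in mouse 1 and 11.6–39.8 CPM in the others, and by *Kcnn3* at 3.29 ± 1.27 CPM per kb. The median over mice was 20.0 CPM for *Kcnt1* and 34.2 CPM for *Kcnn3*, and the order of their means per kb rests on mouse 1. *Kcnn2* was at 1.02 ± 0.410 CPM per kb, below *Kcnn3*. The inward rectifier *Kcnj12* was at 10.9 ± 5.03, *Kcnj11* at 2.57 ± 1.29, and *Kcnj2* at 1.31 ± 1.22 CPM per kb. The tandem-pore leak channel *Kcnk1* was at 9.58 ± 4.20, *Kcnk2* at 4.30 ± 3.12, and *Kcnk3* at 4.25 ± 3.27 CPM per kb. The Kv7 gene *Kcnq3* was at 0.332 ± 0.193 CPM per kb. *Kcnq1ot1*, which stands first by share of cells, was at 3.46 ± 0.863 CPM per kb, because its annotated length is 93.1 kb. Per length, *Kcnh2* was at 0.911 ± 0.909 CPM per kb and *Kcnk9* at 0.382 ± 0.255.

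Genes with a mean of at least 10 CPM over the cells differed in how unevenly they were spread among cells of the same mouse. The coefficient of variation within a mouse (median over mice) was 3.11 for the Kv1 gene *Kcna1*, 2.90 for *Kcnk3*, 2.29 for the sodium-activated gene *Kcnt2*, 2.14 for *Kcnb2*, 2.06 for *Kcna4*, 2.01 for *Kcnj11*, 1.98 for *Kcnk2*, and 1.91 for *Kcnc4*. It was 0.591 for *Kcnq1ot1*, 0.688 for *Kcnma1*, 0.708 for *Kcnip4*, and 0.793 for *Kcnh6*. The highest single cell had 414 CPM of *Kcna1* and 306 CPM of *Kcnk3*, while the median cell had 0 of either. With the cells thinned, the share of cells with *Kcna1* was 11.5% and with *Kcnk3* 12.0%, against 12.9% for both without thinning.

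*Kcns3* (chr12:11090202-11151056, minus strand, GRCm38) was the channel gene whose share differed most between mice. It was counted in 1 of 18 cells of mouse 1, 12 of 34 of mouse 2, 40 of 45 of mouse 3, 5 of 12 of mouse 4, 17 of 38 of mouse 5, 3 of 17 of mouse 6, 7 of 24 of mouse 7, and 2 of 21 of mouse 8. The same mice differed in the cells they gave. *Aldh1a7*, a gene of DA neurons of the substantia nigra, was counted in 0% of the cells of mouse 1 (0 of 18), 32.4% of those of mouse 2, 62.2% of mouse 3, 33.3% of mouse 4, 42.1% of mouse 5, 23.5% of mouse 6, 20.8% of mouse 7, and 28.6% of mouse 8. The orders differ in part, since mouse 8 had *Kcns3* in 9.52% and mouse 4 in 41.7% of cells, and the part of the cells' type in the *Kcns3* shares was not tested. Of the 87 cells with *Kcns3*, 86 were Th-rich and 1 was Th-poor, and 55 also had *Aldh1a7*, 28 *Slc17a6*, and 15 *Neurod6*. The study lists *Kcns3* among genes that define a cluster of these same cells, so its tie to a cell type here is no independent evidence.

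*Kcns3* was found almost wholly in cells that also had *Kcnd3*. Of the 87 cells with *Kcns3*, 85 (97.7%) had *Kcnd3*, and these were 49.4% of the 172 cells with *Kcnd3*. Across the 209 cells, Spearman's rho between their CPM was 0.59, the highest of 1378 pairs of the 53 genes, and within single mice it ranged from 0.20 to 0.79 (median 0.42). The cells of a mouse share the animal and the C1 run, and cells differ in depth, so these are descriptions, and the pairs named here were chosen after their values were seen. *Kcnj15.1* and *Kcnq1ot1* followed with a rho of 0.47 (0.20–0.67 within mice), then *Kcns3* and *Kcnn3* with 0.43 (0.08–0.44), *Kcnd3* and *Kcnn3* with 0.41 (-0.08 to 0.58), *Kcna2* and *Kcnd3* with 0.40 (-0.03 to 0.58), and *Kcnab1* and *Kcnc2* with 0.38 (0.06–0.58). *Kcnd3* and *Kcnip4*, whose products are known to assemble, had a rho of 0.10 (-0.11 to 0.76 within mice), although 98.8% of the cells with *Kcnd3* had *Kcnip4*. The lowest pairs joined *Kcns3* with *Kcnh1*, *Kcnh7*, *Kcnk3*, and *Kcnt2*, at -0.27 to -0.28.

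**Figure D3:**
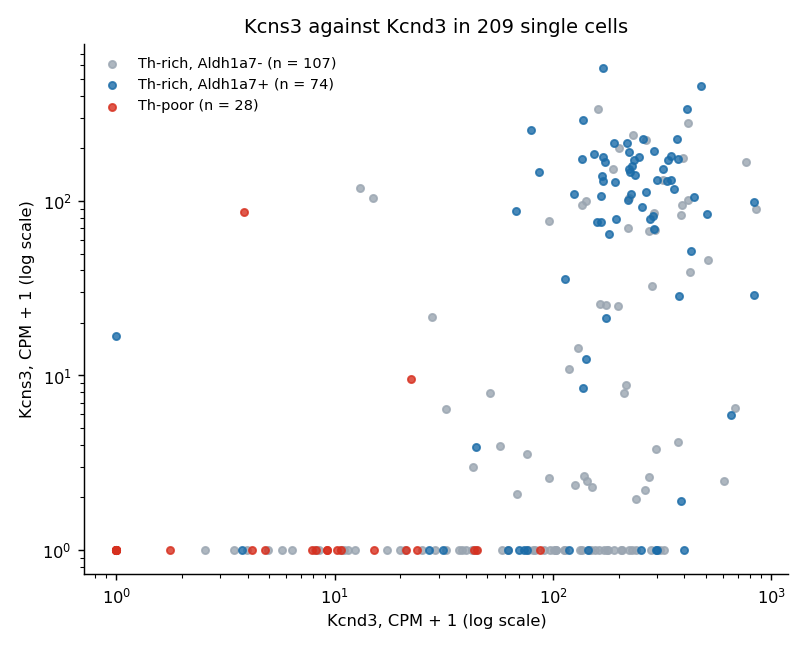
CPM of *Kcns3* against CPM of *Kcnd3* (each plus 1, log scales) in the 209 cells, with 74 Th-rich cells that had *Aldh1a7* in blue, 107 Th-rich cells that did not in gray, and 28 Th-poor cells in red. Most cells with *Kcns3* also have *Kcnd3*, a few have much *Kcns3* and little *Kcnd3*, and many cells with high *Kcnd3* have no *Kcns3* read.

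*Kcnj2* (chr11:111066164-111076821, plus strand, GRCm38), a strong inward rectifier that neurons, endothelium, and microglia all can use, was counted in 15 of the 209 cells from 7 mice (7.18%; range over mice 0–16.7%). Of these cells, 11 were Th-rich, 4 were Th-poor, 5 had *Aldh1a7*, 5 had *Slc17a6*, and 0 had *Neurod6*. The share was 14.3% of Th-poor and 6.08% of Th-rich cells. In the cells that had it, its level ran from 14.5 to 304 CPM with a median of 62.8 CPM.

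This comparison asks which channel genes mark the cells with the DA neuron program among all cells of the DAT lineage. *Kcnd3* and *Kcnip4*, a Kv4 pore gene and a KChIP gene, were higher in Th-rich cells, and both passed the threshold. They were 2 of 48 channel genes tested (4.17%), and across all genes 0.424% passed in either direction and 0.309% passed as higher in Th-rich cells (48 and 35 of 11323 genes; edgeR's quasi-likelihood test, adjusted p under 0.05, 5 mice that had 3 or more cells in both classes). The other 46 did not pass, and 5 more, *Kcnj13*, *Kcnu1*, *Kcnj16*, and *Kcnk4* among them, had too few reads to be tested. The median log2 fold change was 0.26 over the 48 channel genes and -0.10 over all genes. Of the 48, 31 met the limit of 10 cells within the 181 Th-rich cells and not within the 28 Th-poor cells, *Kcnd3* among them, so nothing is read from the counts or the median.

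*Kcnd3* was at 121, 167, 237, 268, and 212 CPM in the Th-rich cells of mice 1, 2, 4, 5, and 6. The Th-poor cells of those mice had 3.54, 20.9, 4.35, 5.75, and 5.91 CPM. The lowest Th-rich value lies above the highest Th-poor value, that of mouse 2. The means were 201 ± 58.0 and 8.08 ± 7.21 CPM (SD, n = 5 mice), a log2 fold change of 4.57 (SE 0.56, adjusted p = 0.00407 from edgeR). At 10 or more reads it was counted in 90.6% of the 181 Th-rich cells and 28.6% of the 28 Th-poor cells. The change kept its direction in all alternatives run, but edgeR no longer called it without mouse 5 (log2 fold change 4.36, adjusted p = 0.0892), without mouse 6 (4.47, adjusted p = 0.0821), in the 2 mice that had 5 or more cells in both classes (3.51, adjusted p = 0.499), or with Th-rich set from 2000 CPM (7 mice, 1.44, adjusted p = 0.469 from edgeR).

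*Kcnip4* was at 404, 408, 334, 364, and 490 CPM in the Th-rich cells of mice 1, 2, 4, 5, and 6. The Th-poor cells of these mice had 108, 168, 107, 138, and 172 CPM. The classes did not overlap, and 3.75% of all genes tested showed classes that did not overlap. The means were 400.3 ± 58.8 and 139 ± 31.3 CPM (SD, n = 5 mice), a log2 fold change of 1.46 (SE 0.24, adjusted p = 0.0293 from edgeR). With the mouse as a block, *Kcnd3* alone was called: its log2 fold change was 4.86 (adjusted p = 0.0256) and that of *Kcnip4* 1.47 (adjusted p = 0.0762 from edgeR). Without any 1 of the 5 mice, *Kcnip4* was at a log2 fold change of 1.37–1.54 and was not called (adjusted p = 0.0534–0.137 from edgeR).

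**Figure D4:**
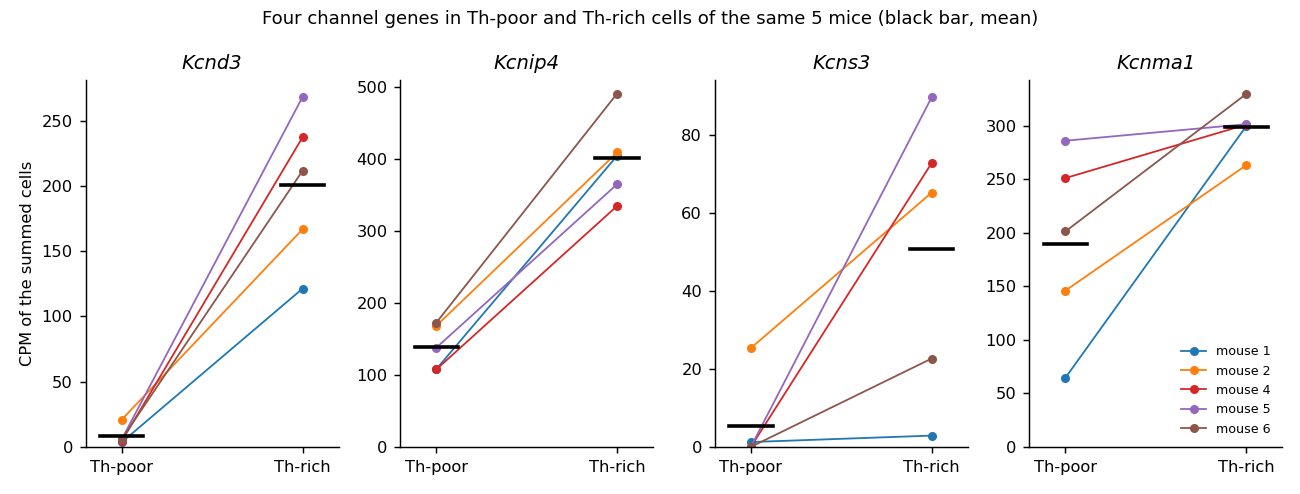
CPM of 4 channel genes in the summed Th-poor and Th-rich cells of the same 5 mice (1 line per mouse, black bars for means). *Kcnd3* and *Kcnip4* separate the classes, whereas for *Kcns3* and *Kcnma1* each line goes up but the classes overlap.

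As *Kcnd3* and *Kcnip4* both passed the threshold, the 250 bases before their RefSeq start sites are shown. A joint regulation of the 2 genes was not tested. The bases are read 5′ to 3′ on the strand of the gene from the RefSeq promoters of GRCm38.p6, with each CG in capitals. *Kcnip4* has 2 start sites in that table, and both are given. These starts differ from the outer gene ends given above, which come from the GENCODE annotation.
*Kcnd3*, chr3:105451640-105451889, plus strand: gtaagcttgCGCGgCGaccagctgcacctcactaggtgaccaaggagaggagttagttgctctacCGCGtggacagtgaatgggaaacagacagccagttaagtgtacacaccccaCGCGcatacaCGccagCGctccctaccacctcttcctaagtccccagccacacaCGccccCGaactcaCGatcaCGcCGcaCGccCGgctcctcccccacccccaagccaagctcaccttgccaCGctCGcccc
*Kcnip4*, first start site, chr5:49285660-49285909, minus strand: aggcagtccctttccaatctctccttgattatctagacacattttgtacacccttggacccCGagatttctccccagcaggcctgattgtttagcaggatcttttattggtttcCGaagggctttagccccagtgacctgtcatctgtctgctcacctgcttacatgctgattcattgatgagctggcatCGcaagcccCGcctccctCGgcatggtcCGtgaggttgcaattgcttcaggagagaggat
*Kcnip4*, second start site, chr5:48599683-48599932, minus strand: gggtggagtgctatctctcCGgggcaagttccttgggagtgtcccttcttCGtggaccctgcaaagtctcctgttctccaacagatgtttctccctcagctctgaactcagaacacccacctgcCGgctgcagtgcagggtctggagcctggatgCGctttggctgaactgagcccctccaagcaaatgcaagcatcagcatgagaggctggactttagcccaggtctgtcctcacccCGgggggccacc

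The *Kcnd3* stretch holds 18 CG and 62.8% G and C, and the *Kcnip4* stretches hold 6 and 5 CG and 51.2% and 59.2% G and C. The median promoter of the table holds 6 CG in these 250 bases. None of the 3 promoters, in the table's full window of 300 bases, holds AAAGGTCA (the NBRE bound by Nr4a2), TAATCC (the bicoid-type site bound by Pitx3), or TATAAA (the TATA box) on either strand. Of all 32851 promoters, 1.51%, 7.06%, and 13.6% hold these motifs. This says only that these letters are not in these windows. Of the 53 genes, 38 were matched to the table.

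The genes with the next smallest p-values did not pass. *Kcnf1*, another silent Kv subunit, was at 10.0, 72.2, 90.7, 0, and 141 CPM in the Th-poor cells of mice 1, 2, 4, 5, and 6 and at 0–4.71 CPM in the Th-rich cells, a log2 fold change of -5.42 (SE 1.72, adjusted p = 0.302 from edgeR). DESeq2 called it (adjusted p = 0.00728) together with *Kcnd3* and *Kcnip4*, 3 channel genes where 3.30% of all genes were called. *Kcnq3* was at 6.41 ± 4.25 and 0.740 ± 1.05 CPM (log2 fold change 3.01, adjusted p = 0.379), and *Kcnk10* at 4.34 ± 4.15 and 24.7 ± 32.2 CPM (log2 fold change -2.56, adjusted p = 0.570 from edgeR; SD, n = 5 mice). *Kcns3* was at 50.7 ± 36.4 CPM in Th-rich and 5.32 ± 11.2 CPM in Th-poor cells (log2 fold change 3.19, adjusted p = 0.577 from edgeR). It was higher in Th-rich cells in 5 of 5 mice, and the one Th-poor sum with more than 1.25 CPM of it was mouse 2, at 25.4 CPM. *Kcns3* met the limit within Th-rich cells (86 of 181) and not within Th-poor cells (1 of 28). *Kcnq3* too met it within Th-rich cells alone, so nothing is read from the direction of either gene. At an unadjusted p under 0.05 by edgeR there were 4 of 48 channel genes (8.33%, against 9.36% of all genes), 3 higher in Th-rich cells (4.50% of all genes) and 1 lower (4.86%).

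Other markers moved with these classes. The summed level of 10 DA neuron genes, *Th* among them, was 13869–17877 CPM in Th-rich and 1322–2943 CPM in Th-poor cells. The Th-poor sum of mouse 2 held 5516 CPM of 6 endothelial and mural genes, whereas all other sums in this comparison held 0–1.14 CPM of them. The 6 genes of the dissociation response, such as *Fos*, were at 287–7384 CPM in Th-poor and 94.5–1041 CPM in Th-rich cells, higher in Th-poor cells of 4 of 5 mice. GABA neuron genes were at 1.59–1473 CPM in Th-poor and 2.78–711.3 CPM in Th-rich cells, astrocyte genes at 127–1644 and 277–543 CPM (higher in Th-rich cells in 4 of 5 mice), nigral type genes at 1.32–59.8 and 25.1–398 CPM (higher in Th-rich cells in 4 of 5), oligodendrocyte genes at 12.2–180.2 and 25.7–76.1 CPM, and microglia genes at 0.265–13.1 and 0–1.93 CPM. Without mouse 2, *Kcnd3* had a log2 fold change of 5.36 (adjusted p = 0.00125 from edgeR). The part of these lists in the results was not tested.

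*Aldh1a7* is known from DA neurons of the substantia nigra, and 74 of the 181 Th-rich cells had it at 10 or more reads. In the 7 mice that had 3 or more cells in both classes, no channel gene passed the threshold by edgeR (0 of 49 tested, where 0.112% of all genes passed). At an unadjusted p under 0.05 by edgeR there were 12 of 49 (24.5%, against 7.52% of all genes), of which 10 were lower and 2 higher in *Aldh1a7*+ cells (3.95% and 3.57% of all genes, and 0.0479% passed the adjusted threshold as higher). DESeq2 called 4, *Kcnh7*, *Kcnip2*, *Kcnk9*, and *Kcnv1*, all lower in *Aldh1a7*+ cells, where it called 1.13% of all genes. The median log2 fold change was -0.37 over the channel genes and -0.01 over all genes. The limit of 10 reads in 10 cells, by which the channel genes were chosen, can bear on these counts and on their direction. Of the 10 genes on the lower side, 8 met it within the 107 *Aldh1a7*- cells and not within the 74 *Aldh1a7*+ cells, and all 4 genes that DESeq2 called are among the 8. A gene that met it through *Aldh1a7*- cells alone tends to be lower in *Aldh1a7*+ cells. Nothing is therefore read from the counts, the median, or the lean to the lower side. Of the genes of the whole table that met the same limit, 7.72% had an unadjusted p under 0.05 by edgeR, 4.00% as lower and 3.71% as higher, and DESeq2 called 1.19%. Their median log2 fold change was -0.01, and the part of the limit in the lean of the channel genes was not tested.

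*Kcnh7* (chr2:62693414-63184287, minus strand, GRCm38), an ERG channel gene, had 10 or more reads in 0 of 74 *Aldh1a7*+ cells, which at a limit of 3 counts allows a share of up to 4.05%, and in 16 of 107 *Aldh1a7*- cells (15.0%). These cell counts, here and for *Kcnip2*, *Kcnk9*, and *Kcnv1*, are the values by which the genes were chosen and are given as a description. Per mouse it was at 0–1.55 CPM (median 0) in *Aldh1a7*+ cells and 1.86–19.4 CPM (median 6.56) in *Aldh1a7*- cells. The classes did not overlap (0.359% of all genes did not), and it was lower in *Aldh1a7*+ cells in 7 of 7 mice. Its log2 fold change was -4.78 (SE 1.10, adjusted p = 0.155 from edgeR and 0.000733 from DESeq2). *Kcnip2*, a KChIP gene, was at 0–2.78 CPM (median 0.172) and 0.504–21.9 CPM (median 11.7), lower in 7 of 7 mice (log2 fold change -3.86, SE 1.03, adjusted p = 0.262 from edgeR and 0.00612 from DESeq2). *Kcnk9*, which encodes a TASK leak channel, was at 0–2.65 CPM (median 0.163) and 0–13.8 CPM (median 5.08; log2 fold change -3.71, SE 1.05, adjusted p = 0.295 from edgeR and 0.0406 from DESeq2). It met the limit through the *Aldh1a7*- cells, with 10 or more reads in 22 of 107 of them and in 0 of 74 *Aldh1a7*+ cells. *Kcnv1*, a silent subunit, was at 0–4.73 CPM (median 0.0543) and 1.51–45.7 CPM (median 8.35; log2 fold change -4.26, SE 1.25, adjusted p = 0.315 from edgeR and 0.0133 from DESeq2).

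The KChIP *Kcnip3* was the gene with the smallest p among those higher in *Aldh1a7*+ cells. It was at 12.9–217 CPM (median 103) in *Aldh1a7*+ cells and 9.53–55.3 CPM (median 37.3) in *Aldh1a7*- cells, higher in 6 of 7 mice, with mouse 8 as the exception at 12.9 and 46.7 CPM (log2 fold change 1.54, SE 0.47, adjusted p = 0.341 from edgeR and 0.0571 from DESeq2). *Kcnip3* was counted in 70.3% of *Aldh1a7*+ and 41.1% of *Aldh1a7*- cells, *Kcnip2* in 2.70% and 10.3%, and *Kcnip1* in 4.05% and 11.2%. *Kcnip2* and *Kcnip1* met the limit within *Aldh1a7*- cells alone, so their shares are given as a description and nothing is read from them. *Kcnd2*, a Kv4 pore gene, was at 18.6 ± 14.9 and 41.3 ± 14.1 CPM (SD, n = 7 mice) and lower in *Aldh1a7*+ cells in 7 of 7 mice (log2 fold change -1.14, SE 0.45, adjusted p = 0.543 from edgeR). *Kcnn3* was at 54.0 ± 18.8 and 31.1 ± 19.9 CPM and higher in 7 of 7 mice (log2 fold change 0.81, SE 0.41, adjusted p = 0.699 from edgeR). *Kcns3* was at 81.5 ± 60.2 and 39.4 ± 41.3 CPM and higher in 5 of 7 mice (log2 fold change 1.04, SE 0.69, adjusted p = 0.794 from edgeR), although it was counted in 74.3% of *Aldh1a7*+ cells and 29.0% of *Aldh1a7*- cells pooled over mice. Across mice its level in the *Aldh1a7*- cells ran from 5.74 CPM in mouse 8 to 113 CPM in mouse 3.

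The summed level of 3 nigral type genes, *Aldh1a7* among them, was higher in *Aldh1a7*+ cells in 7 of 7 mice, but it differed between mice. In mice 2 to 6 the *Aldh1a7*+ sums held 467–825 CPM of these genes, more than of the ventral tegmental type. In mice 7 and 8 they held 128 and 148 CPM of the nigral type and 1203 and 991 CPM of the ventral tegmental type. As the lists hold different genes, which of them is higher does not by itself set the type of the cells. Leaving out these 2 mice, an alternative chosen after the data were seen, edgeR again called 0 of 48 channel genes, and the log2 fold change was -5.97 for *Kcnh7*, -3.60 for *Kcnip2*, -3.51 for *Kcnk9*, -4.23 for *Kcnv1*, and 1.86 for *Kcnip3*. The summed level of 4 genes of the ventral tegmental type (*Otx2*, *Calb1*, *Neurod6*, *Grp*) was 100–1203 CPM in *Aldh1a7*+ and 534–1543 CPM in *Aldh1a7*- cells, lower in *Aldh1a7*+ cells in 7 of 7 mice. The dissociation genes were at 85.0–304 and 103–766 CPM and oligodendrocyte genes at 8.85–72.7 and 32.0–184 CPM, each lower in *Aldh1a7*+ cells in 7 of 7 mice. GABA neuron genes were at 0.787–255 and 1.43–1350 CPM, and microglia genes and endothelial and mural genes at 0–4.07 CPM in every sum. The part of these lists in the values above was not tested.

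*Neurod6*, a transcription factor gene, marks a group of DA neurons of the ventral tegmental area, and this comparison asks which channel genes differ in them. By edgeR no channel gene passed (0 of 50 tested in 6 mice, where 0.00807% of all genes passed, which is 1 gene). At an unadjusted p under 0.05 by edgeR there were 5 of 50 (10.0%, against 5.54% of all genes), 3 higher (2.71% of all genes) and 2 lower (2.83%). DESeq2 called 2, *Kcnab1* and *Kcnc2*, both higher in *Neurod6*+ cells, where it called 0.893% of all genes. The median log2 fold change was 0.06 over the channel genes and 0.01 over all genes. Of the 50, 15 met the limit within *Neurod6*- cells and not within *Neurod6*+ cells, *Kcnk3* among them, whereas the 3 on the higher side met it in both classes.

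*Kcnab1* (chr3:65109384-65378223, plus strand, GRCm38) encodes a beta subunit that gives Kv1 channels fast inactivation. In *Neurod6*+ cells it was at 102–269.8 CPM (median 126), against 4.73–71.0 CPM (median 19.7) without *Neurod6*. All 6 mice had more of it in *Neurod6*+ cells, and the classes did not overlap, as for 0.638% of all genes. Its log2 fold change was 2.23 (SE 0.54, adjusted p = 0.276 from edgeR and 0.00318 from DESeq2), and it was counted in 83.7% of 49 *Neurod6*+ cells and 20.5% of 132 *Neurod6*- cells. *Kcnc2* (chr10:112271121-112467024, plus strand, GRCm38), a Kv3 gene known from fast-spiking neurons, was at 57.8–233 CPM (median 133) and 25.8–92.6 CPM (median 55.4), higher in 6 of 6 mice (log2 fold change 1.30, SE 0.35, adjusted p = 0.372 from edgeR and 0.0345 from DESeq2). It was counted in 91.8% of *Neurod6*+ and 54.5% of *Neurod6*- cells.

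The TASK gene *Kcnk3* was at 0–5.22 CPM (median 0.478) in *Neurod6*+ and 0.543–40.3 CPM (median 14.5) in *Neurod6*- cells, lower in 5 of 6 mice (log2 fold change -3.50, SE 1.26, adjusted p = 0.722 from edgeR). *Kcnip4* was at 539 ± 140 and 389 ± 51.3 CPM (SD, n = 6 mice; log2 fold change 0.51, adjusted p = 0.758 from edgeR). *Kcns3* was counted in 30.6% of *Neurod6*+ and 53.8% of *Neurod6*- cells, at 28.3 ± 31.6 and 61.2 ± 56.3 CPM (log2 fold change -1.07, adjusted p = 1.00 from edgeR). *Kcnj2*, which had too few reads to be tested here, was at 0.0588 ± 0.0968 and 5.63 ± 4.64 CPM and lower in 6 of 6 mice. It met the limit within *Neurod6*- cells (11 of 132) and not within *Neurod6*+ cells (0 of 49), so nothing is read from its direction. Beside these values, 6 astrocyte genes were at 551–1021 CPM in *Neurod6*+ and 129–398 CPM in *Neurod6*- cells and higher in 6 of 6 mice, while up to 5 of the 6 were at 0 in a sum, and 3 genes of the nigral type were at 6.45–184 and 31.8–547 CPM and lower in 6 of 6. GABA neuron genes were at 2.47–333 and 28.5–1751 CPM and dissociation genes at 65.8–664 and 136–1189 CPM, each lower in *Neurod6*+ cells in 5 of 6 mice. The part of these lists was not tested.

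*Slc17a6* encodes the vesicular glutamate transporter of DA neurons that can corelease glutamate, and 93 of the 181 Th-rich cells had it. No channel gene passed by edgeR (0 of 47 tested in 8 mice, where 0.0169% of all genes passed), and DESeq2 called 0, where it called 0.229% of all genes. At an unadjusted p under 0.05 by edgeR there were 8 of 47 (17.0%, against 5.05% of all genes), 6 of them higher in *Slc17a6*+ cells (2.74% of all genes) and 2 lower (2.30%). The classes overlapped for every channel gene tested, and 0.0339% of all genes did not overlap. The median log2 fold change was 0.21 over the channel genes and -0.02 over all genes. Within one class alone, 11 of the 47 met the limit in *Slc17a6*+ and 3 in *Slc17a6*- cells, and among the 6 on the higher side these were *Kcnh7* and *Kcnv1*, so nothing is read from the counts or the median.

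*Kcnc2* was at 25.8–164 CPM (median 94.8) in *Slc17a6*+ and 41.9–67.1 CPM (median 51.4) in *Slc17a6*- cells, higher in 6 of 8 mice (log2 fold change 0.91, SE 0.28, adjusted p = 0.750 from edgeR). *Kcnv1* was at 1.87–52.2 CPM (median 7.10) and 0–5.82 CPM (median 1.51; log2 fold change 3.28, SE 1.03, adjusted p = 0.750), and *Kcnh7* at 1.88–27.8 CPM (median 8.02) and 0–6.49 CPM (median 0.527; log2 fold change 2.75, SE 0.92, adjusted p = 0.834 from edgeR), each higher in 8 of 8 mice. *Kcnma1* was at 256 ± 48.3 and 333 ± 71.8 CPM (SD, n = 8 mice; log2 fold change -0.39, SE 0.16, adjusted p = 0.974 from edgeR), and *Kcnn3* at 26.9 ± 12.3 and 48.7 ± 25.0 CPM (log2 fold change -0.88, SE 0.38, adjusted p = 0.975 from edgeR). *Kcns3* was counted in 29.0% of *Slc17a6*+ and 67.0% of *Slc17a6*- cells and was lower in *Slc17a6*+ cells in 8 of 8 mice, at 25.3 ± 30.4 and 81.6 ± 55.9 CPM (log2 fold change -1.70, SE 0.86, adjusted p = 0.988 from edgeR). Nigral type genes (5.44–235 CPM in *Slc17a6*+ and 47.5–599 CPM in *Slc17a6*- cells) were lower, and ventral tegmental type genes (675–1632 and 91.2–1332 CPM) higher, in *Slc17a6*+ cells of 8 of 8 mice, so that this split and the one by *Aldh1a7* divide the same cells in part and are not independent of each other.

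**Figure D5:**
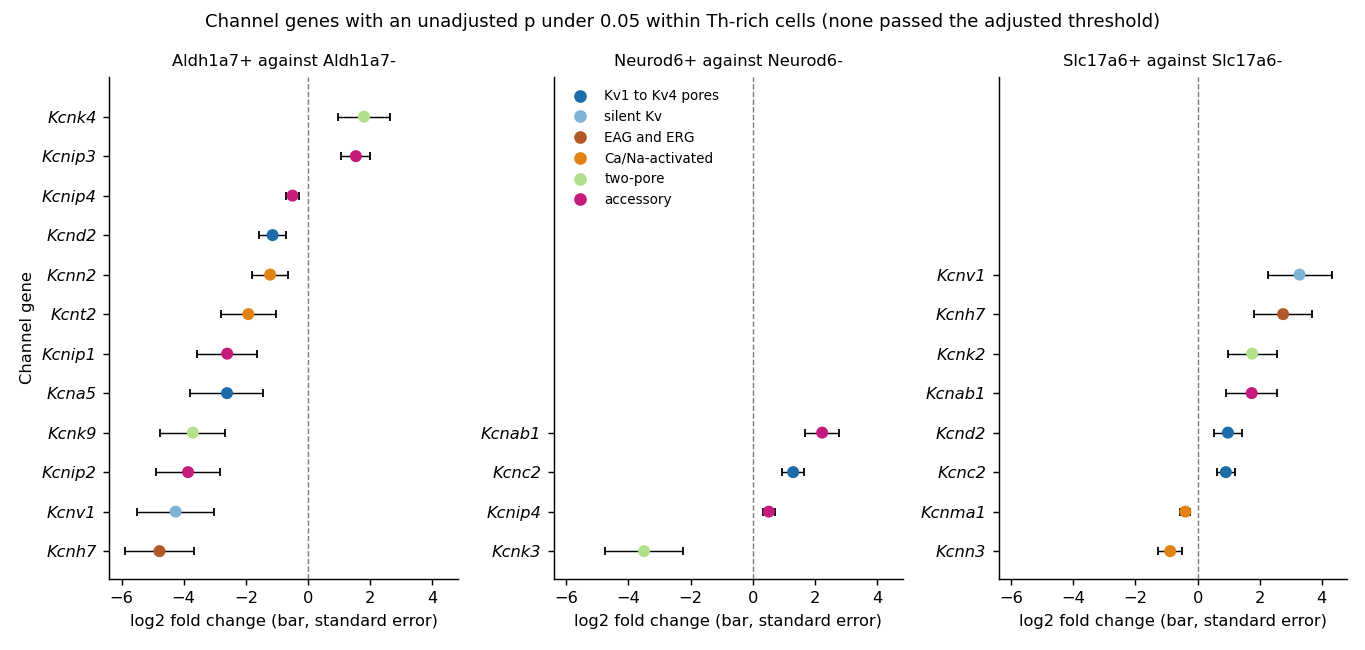
Log2 fold changes (points, with bars of 1 SE) of channel genes with an unadjusted p under 0.05 by edgeR in the 3 comparisons within Th-rich cells, colored by gene family, with 1 of the 5 genes for *Neurod6* not shown. The 12, 4, and 8 genes shown did not pass the adjusted threshold, and 8 of the 10 on the lower side for *Aldh1a7* met the limit on cells within *Aldh1a7*- cells alone.

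The labels give sex beside age, C1 machine, and chip, and 5 male and 3 female mice were compared. Age goes with sex in part: the females were 25, 33, and 36 d old and the males 24, 24, 27, 27, and 28 d, so that 2 of 3 females were older than every male, and the part of age was not tested. No channel gene passed (0 of 53 by edgeR, where 0.0322% of 15529 genes passed and 0.0258% passed as higher in males, and 0 by DESeq2, where 1.27% of genes passed). At an unadjusted p under 0.05 by edgeR there were 3 of 53 (5.66%, against 8.12% of all genes), 1 higher in males (4.55% of all genes) and 2 lower (3.57%). Males (mice 2, 3, 5, 7, and 8) had 11.1, 11.9, 12.4, 12.1, and 15.6 CPM of *Kcnj11*, and females (mice 1, 4, and 6) had 6.74, 3.60, and 2.05 CPM, a log2 fold change of 1.58 (SE 0.55, adjusted p = 0.525 from edgeR). The males had 1.16–5.78 CPM of *Kcnv1* and the females 8.44–19.6 CPM (log2 fold change -2.14, SE 0.68, adjusted p = 0.512), and *Kcnh7* at 1.28–9.78 and 10.3–17.2 CPM (log2 fold change -1.47, SE 0.64, adjusted p = 0.601 from edgeR). For these 3 genes the sexes did not overlap, as for 5.65% of all genes. *Kcnt1* had 21.0 ± 11.3 and 53.1 ± 56.7 CPM, and *Kcnk1* at 26.6 ± 5.68 and 12.8 ± 8.05 CPM (SD, n = 5 males and 3 females; log2 fold changes -1.37 and 1.02, adjusted p = 0.621 and 0.639 from edgeR). Without mouse 1, *Kcnt1* had a log2 fold change of 0.00346. Within the one C1 machine used for males and females alike, *Kcnj11*, *Kcnv1*, and *Kcnh7* had log2 fold changes of 1.45, -2.22, and -2.12, and on medium chips 1.53, -1.76, and -2.31. With all cells of 100000 or more reads, that of *Kcnh7* was -0.47. In Th-rich cells alone they were 1.06, -2.48, and -0.98. Males had 12059–17584 CPM of the 10 DA neuron genes and females 9343–11957 CPM, without overlap, and 129–984 and 395–3329 CPM of the dissociation genes. Oligodendrocyte genes came to 33.7–2669 CPM in the male and 51.1–109.9 CPM in the female sums, and endothelial and mural genes at 0.375–716.2 and 0–0.549 CPM. The part of these lists was not tested. The median log2 fold change was 0.17 over the channel genes and 0.02 over all genes.

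Of 21 genes of potassium channel complexes whose symbols do not begin with *Kcn*, 18 were tested in each of the 5 comparisons, and edgeR called 0 in either direction. At an unadjusted p under 0.05 by edgeR there were 0 of 18 in males against females (8.12% of all genes), 1 in Th-rich against Th-poor cells (9.36%), 2 for *Aldh1a7* (7.52%), 1 for *Neurod6* (5.54%), and 0 for *Slc17a6* (5.05%), and nothing is read from these counts. They were *Calm3* for Th-rich against Th-poor cells, *Cntn2* and *Vapb* for *Aldh1a7*, and *Lgi1* for *Neurod6*, with adjusted p of 0.499, 0.403, 0.638, and 0.326 from edgeR.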

How the data were processed

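The authors trimmed the reads (Trimmomatic 0.3.2), aligned them with TopHat2 2.1.1 to the GRCm38 genome, and assigned them to RefSeq transcripts with featureCounts 1.5.0-p3, leaving out reads of more than one gene (tools per the submitters' processing notes and the study's methods). The deposited values are raw read counts per gene and cell. Of the 47082 entries, 5721 hold no value and were left out, as were spike-in entries (5.20e-06% of reads) and transgene entries (0.00324%). All 384 columns were matched to a labelled cell. Sex was taken from the labels, with which the series' own design text disagrees on the number of males.

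Counts of the 209 cells were added up by mouse, or by mouse and class where a mouse had 3 or more cells of both. The sums were fitted in R 4.3.3 with edgeR 4.0.16 (TMM, filterByExpr, quasi-likelihood, Benjamini-Hochberg over all genes tested, threshold 0.05), and DESeq2 1.42.0 was an alternative. Both tools were tested on simulated data. The SE is the size of the log2 fold change divided by the square root of F. Because a mouse gave cells to both classes, it served as a block in an alternative fit. With class means removed, its 2 sums correlated across genes at 0.0309–0.169 (*Th*), 0.0459–0.227 (*Aldh1a7*), 0.0731–0.285 (*Neurod6*), and 0.0212–0.297 (*Slc17a6*). Replicates are separate mice. Exon lengths and positions came from the GENCODE annotation of GRCm38. Intervals of shares are exact binomial ones (95%), and a share of 0 is given with the limit that 3 counts allow.

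Members, lists, and tests were chosen with earlier results of these data known. Genes were named by level (the 20 highest per length), by each test (all that passed, or the 5 smallest p), by a list of channels known in DA neurons, by distance from the limit (5 on each side and ties), and by variation between cells of a mouse (8 genes). Other alternatives were scaling, filters on genes and cells, limits of each class, and each mouse left out. Some genes that the limit or these rules would name are not reported here, though counts over all members include them.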

Additional observations from a re-analysis of the deposited data

Results flagged for a closer look

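For the genes named in the comparisons, 54 groups of 5–8 mice were looked at for 1 mouse that stands far from the rest, and 10 such values were found. The limit used is one that about 1 in 20 groups of normally distributed values pass by chance, and several of the groups below lie near 0, where that rate need not hold and was not measured. In Th-poor cells, mouse 2 stood above the other mice in *Kcnd3* (20.9 CPM, others 3.54–5.91), *Kcnq3* (2.54 CPM, others 0–0.625), and *Kcns3* (25.4 CPM, others 0–1.25). These 3 values come from the same 5 cells, whose sum also held the endothelial and mural genes. Among *Aldh1a7*+ cells, mouse 6 stood above the others in *Kcnk9* (2.65 CPM, others 0–0.388) and mouse 2 in *Kcnv1* (4.73 CPM, others 0–0.590). Among *Neurod6*+ cells, mouse 5 stood above the others in *Kcnab1* (269.8 CPM, others 102–148). Among *Slc17a6*- cells, mouse 4 stood above in *Kcnn3* (102 CPM, others 21.1–57.0), and among *Slc17a6*+ cells mouse 3 in *Kcns3* (92.0 CPM, others 0–36.9). Among males, mouse 8 stood above in *Kcnj11* (15.6 CPM, others 11.1–12.4) and mouse 7 below in *Kcnk1* (16.8 CPM, others 26.8–30.6). No explanation of these values was tested.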

How the results depend on the processing

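The number of genes that met the limit was 49–54 in the alternatives, and 19–20 of the 20 highest genes per length stayed among the 20 (19–20 without each mouse). Of the 53 genes, 23 were counted in at least 50% of cells from 1 read and 4 from 50 reads, in place of 12. For Th-rich against Th-poor cells, where 2 channel genes were called, edgeR called 1 with no filter on low counts, 1 with Th-rich set from 500 CPM, 1 with the mouse as a block, and 0–1 without each mouse (0 without mouse 5 or mouse 6), and it called 0 in the 2 mice that had 5 or more cells in both classes and 0 with Th-rich set from 2000 CPM. Whenever 1 was called it was *Kcnd3*. The count over all genes went from 48 to 10 with the block. For *Aldh1a7*, where edgeR called 0, DESeq2 called 4, and edgeR called 1 (*Kcnk9*) in the 5 mice that had 5 or more cells in both classes and 2 (*Kcnh7*, *Kcnip1*) with positive cells set from 50 reads. For *Neurod6*, DESeq2 called 2 and edgeR called 1 (*Kcnj2*) in all cells, Th-poor ones included. For *Slc17a6*, edgeR called 1 (*Kcnip1*) with positive cells set from 1 read. With the classes as first set, *Kcnk9*, *Kcnh7*, and *Kcnip1* met the limit of 10 cells within *Aldh1a7*- and not *Aldh1a7*+ cells. *Kcnj2* met it within *Neurod6*- cells alone and *Kcnip1* within *Slc17a6*+ cells alone. Nothing is therefore read from these edgeR calls for *Aldh1a7*, *Neurod6*, and *Slc17a6*. The share of all genes called in each such fit is not given here. The causes were not tested. Without each mouse, edgeR called 0 channel genes for *Aldh1a7*, *Neurod6*, *Slc17a6*, and sex, as in the full data. The block changed no other call of a channel gene. Over all refits of 30 named changes, 1 value reversed: *Kcnt1* between the sexes had a log2 fold change of 0.00346 without mouse 1 and -1.78 to -1.23 without each other mouse.

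Depth limits the rarer genes. The 5 genes nearest the limit were counted in 10–13 cells, and most of the 209 cells had no read of them. Th-poor sums hold 4–7 cells of a mouse, and females gave fewer reads than males.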
